A study of Petromyzon marinus with 10 samples.

Results

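KLF7 and KLF10 are the Krüppel-like transcription factors among the genes that the study lists as changed by baclofen in the brainstem of injured larval sea lampreys (Petromyzon marinus). They are 2 of the 57134 loci in the count table, MSTRG.12416 for KLF7 and MSTRG.165 for KLF10. The loci carry no gene names, and both names are those that the study paired with these identifiers. Both were selected on the adjusted p of the contrast of baclofen with control in these same libraries, so their change is given as a description with no p-value. The 5 Baclofen libraries come from larvae whose spinal cord had been cut completely and which were then kept in water with baclofen, an agonist of the GABAB receptor. The 5 Control libraries come from larvae with the same transection and no drug. All larvae were 5 to 7 years old and were caught in the river Ulla, and all libraries hold poly(A) RNA of whole brainstems. Each library is a pool of several animals, so the spread below is one between pools. The series text places the animals 29 days after injury. The methods of the study give that day for its GABA experiment only. For the baclofen animals and their controls they give an earlier day, at which axon retraction is said to predominate. The study's own names for the Baclofen libraries carry the earlier day too, so the 29 days appear to belong to the other experiment. No calculation here used the day, but all values describe a single time point.

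Krüppel-like factors bind GC-rich and CACCC-type DNA elements through a row of zinc fingers at the carboxyl end of the protein. In mammals, family members act on axon growth in opposite directions. KLF7 is one of the members that promote it in the mouse nervous system. KLF10 was first found in human cells as an early gene induced by TGF-beta, and mostly represses transcription. In mouse liver KLF10 also follows the circadian clock.

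KLF7 lies on scaffold PIZI01000016.1 of the assembly Pmar_germline 1.0, from 12532541 to 12544535 on the minus strand. Its 7 exon records merge into 4 exons with 4614 bp in all, and the last of them, of 3313 bp, makes up most of that exon length. KLF10 lies on scaffold PIZI01000001.1 from 5885474 to 5907392 on the plus strand. Its 15 exon records merge into 6 exons with 5985 bp. The first exon has only 58 bp, the second starts 8761 bp from the 5′ end, and the last exon has 4211 bp. The count table marks neither coding sequence nor UTRs, so the parts of each exon are not known.

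Both loci are embedded among others. KLF7 lies wholly inside the spans of 3 other loci, and none of their exons shares a base with an exon of KLF7. One of these, MSTRG.12414, is on the strand of KLF7 and has 2 exons with 338 bp in all. The others, MSTRG.12413 with 13 exons and MSTRG.12415 with 2, are on the opposite strand. KLF10 lies inside a locus of 1737506 bp on the opposite strand. Its 5′ end also overlaps head to head with MSTRG.164, a locus of 9 exons on the opposite strand, over 4260 bp and again without a shared exon base. Fragments were counted by strand and over exons. No other assembled exon thus covers those of KLF7 or KLF10.

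**Figure D1:**
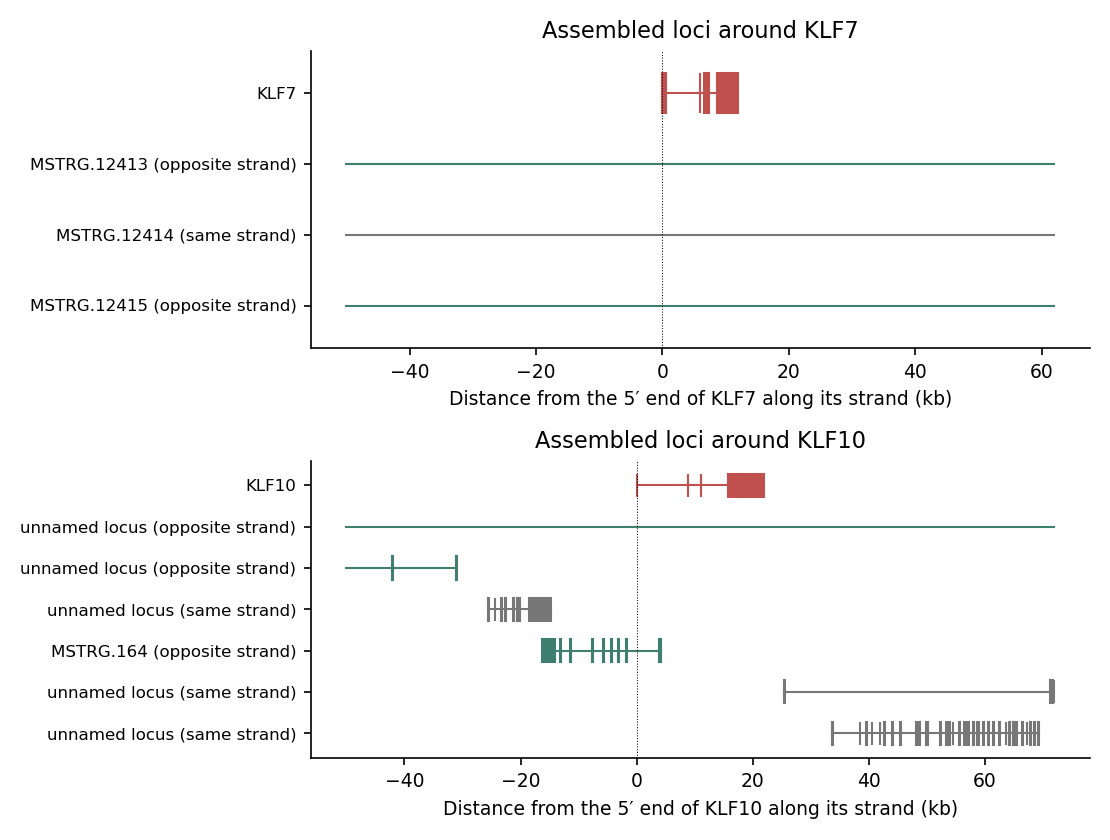
Assembled loci within 50 kb of KLF7 (top) and KLF10 (bottom), against the distance in kb from the 5′ end of each gene along its own strand. Boxes are exons, lines are spans, red marks the gene, grey its own strand and green the opposite one. All 3 loci around KLF7 run past the window and have no exon in it, and MSTRG.164 overlaps the 5′ end of KLF10.

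KLF7 was higher in every Baclofen library than in any Control library. Counts normalised by the median of ratios, which scales each library by its typical locus, were in order of replicate 549.7, 613, 565, 589 and 595 in the Baclofen libraries. The Control libraries, in the same order, had 355, 451, 457, 396 and 400.5. The Baclofen libraries lay close together, and the lowest of them was 1.20 times the highest Control library. The Baclofen mean was 582 ± 24.9 and the Control mean 412 ± 42.6 (SD over 5 libraries). In DESeq2 the log2 fold change came to 0.51 ± 0.08 (SE), or 1.42-fold with a 95% interval of 1.27 to 1.59. The interval takes no account of the selection of KLF7 on this contrast, which favours large estimates, and it is not a test. Control replicate 1 had the lowest value. Without it the log2 fold change was 0.45, the smallest among the 10 fits that left out 1 library, and the largest was 0.54. The brainstem is a mixture of cells, and more KLF7-expressing cells cannot be told apart from more KLF7 RNA per cell. The same holds for every gene below.

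KLF10 was also above the controls in all 5 Baclofen libraries, with a gap that was narrower as a ratio and wider in counts (107 against 92.7 normalised counts for KLF7). Its normalised counts were 1348, 1395, 1632, 1541 and 1668 in the Baclofen libraries, in order of replicate. The Control libraries had 1062, 1241, 1102, 1099 and 1045. Baclofen replicates 1 and 2 were the low ones of their group, and Control replicate 2 stood above the other controls. The lowest Baclofen library was 1.09 times the highest Control library. The Baclofen mean was 1517 ± 142 and the Control mean 1109.7 ± 77.0 (SD over 5 libraries). The log2 fold change by DESeq2 was 0.45 ± 0.08 (SE), or 1.37-fold with a 95% interval of 1.23 to 1.52. As for KLF7, the interval takes no account of the selection. Without any 1 library it lay between 0.42 and 0.50.

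**Figure D2:**
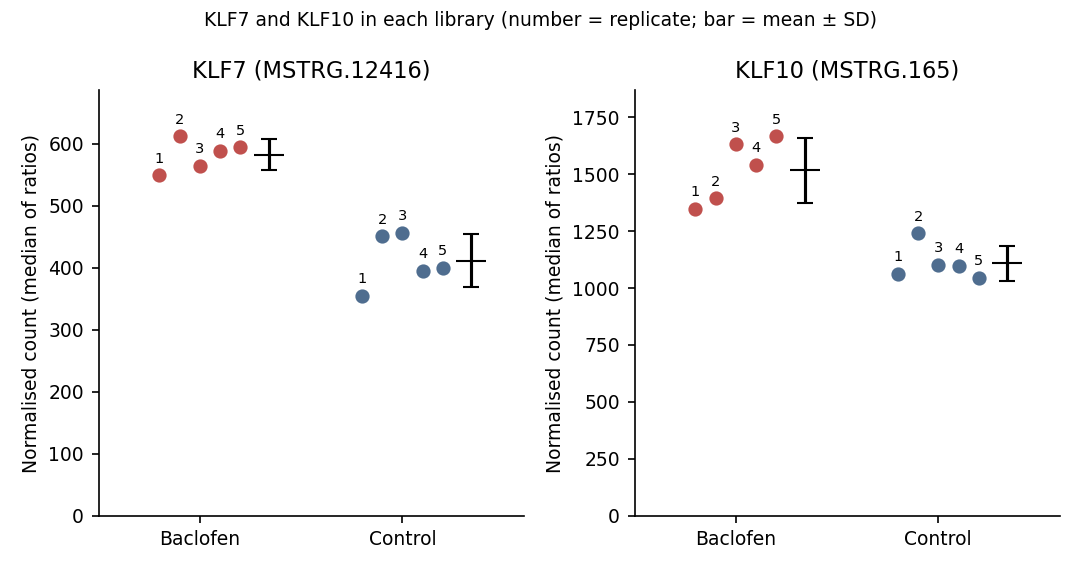
Normalised counts of KLF7 (left) and KLF10 (right) in each library, with the replicate number above each point and the mean ± SD of the group beside the points (n = 5 each). KLF7 lies between 549.7 and 613 with baclofen and between 355 and 457 in controls, and KLF10 between 1348 and 1668 with baclofen and between 1045 and 1241 in controls.

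For scale, the 5 Baclofen libraries lay wholly above the 5 Control libraries at 0.765% of the 23794 loci that DESeq2 tested. An adjusted p under 0.05 was reached at 0.345% of tested loci in either direction and at 0.269% among those higher with baclofen. KLF7 and KLF10 are in all 3 sets through the same values that chose them, so nothing is read from it. The called loci ended at a DESeq2 adjusted p of 0.0469, and the next locus had 0.0516. By log2 fold change KLF7 ranked 31 and KLF10 ranked 39 among the 64 loci called higher, whose median was 0.50. The number of calls rested on single libraries and on the tool. Without Control replicate 1 it was 426 in place of 82, without Baclofen replicate 5 it was 49, and edgeR's quasi-likelihood test called 25.

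The replicate spread is given beside counting error as a description. Selection on the adjusted p favours a small spread within groups, so neither this comparison nor the dispersion shares below is free of the choice. Between 353 and 722 fragments per library were counted for KLF7 and between 851 and 2025 for KLF10, out of 12774386 to 19566056 in a library. With baclofen KLF7 had a coefficient of variation of 4.28%, about the 4.07% that counting alone gives. In controls it was 10.3%, against 5.00% from counting. KLF10 varied by 9.33% with baclofen and by 6.94% in controls, where counting alone gives 2.53% and 3.05%. KLF7 exceeded counting error in controls as KLF10 did in both groups, and whether the genes differ in spread was not tested. The dispersion that DESeq2 fitted was 0.00598 for KLF7 and 0.00624 for KLF10. Of tested loci with a mean count within 1.5 times, 59.7% had a larger dispersion than KLF7 and 30.4% a larger one than KLF10.

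KLF10 was the more abundant of both genes in counts, and remained so with exon length taken into account. In FPKM, computed here from the counts by scaling each to exon length and library total, its level was 15.9 ± 1.28 in Baclofen and 11.4 ± 0.543 in Control libraries. On the same scale KLF7 had 7.90 ± 0.434 in Baclofen and 5.50 ± 0.411 in Control libraries (SD over 5). The lowest KLF10 library, 11.0, exceeded the highest KLF7 library, 8.48. Averaged over the 10 libraries, the level of KLF10 was above that of 85.1% of tested loci and the level of KLF7 above that of 68.4%. KLF10 had 2.01 ± 0.193 times the level of KLF7 with baclofen and 2.09 ± 0.167 times in controls, with overlapping groups.

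The ratio of KLF7 to KLF10 counts within a library, which no scaling can alter, thus hardly differed between the groups. Both genes were chosen on the same contrast and both rose, so this follows in part from the choice and is a description. Its log2 value was −1.29, −1.19, −1.53, −1.39 and −1.49 across the Baclofen libraries by replicate. Across the Control libraries it was −1.58, −1.46, −1.27, −1.47 and −1.38. The averages, −1.38 ± 0.14 for Baclofen and −1.43 ± 0.12 for Control (SD over 5 libraries), were 0.06 apart, less than either SD. Single libraries did not order both genes alike. Baclofen replicate 2 was the highest of its group for KLF7 and the second lowest for KLF10. KLF7 and KLF10 were on the same side of their group means in 3 of 5 Baclofen and 4 of 5 Control libraries.

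The loci around KLF7 and KLF10 were not used to choose them, so their change is not set by that choice. The 82 loci that DESeq2 called are those of the study's baclofen list, made from the same libraries. Which neighbours it would call was thus known beforehand. Of 9 neighbours that overlap either gene or lie within 50 kb of it, 7 had enough counts, and DESeq2 called 0 of them (0 also at an unadjusted p under 0.05). edgeR called 0 of the same 7, with 0 at an unadjusted p under 0.05. With 0.345% of tested loci called, 7 loci would rarely hold a call, so their intervals say more than this count. The share of all loci with an unadjusted p under 0.05 is not given here, so nothing is read from those counts. Their log2 fold changes ran from −0.18 to 0.06 with a median of 0.02, beside a median of −0.01 over all tested loci, and the 95% intervals reached from −0.41 to 0.25. Adjusted p-values were between 0.974 and 0.998 in DESeq2, and the groups overlapped at all 7 of them. Baclofen lay wholly above Control at only 0.765% of tested loci, so overlap at 7 loci is not read as a result.

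At KLF7 the only neighbour with enough counts was MSTRG.12413. It had 1111, 1136, 1215, 1170 and 1121 normalised counts across the Baclofen libraries by replicate, against 1039, 1132, 1239, 1187 and 1085 across the Control libraries. The groups overlapped fully, and DESeq2 put the log2 fold change at 0.02 ± 0.06 (SE), with an adjusted p of 0.998. The log2 ratio of KLF7 to MSTRG.12413 was −0.98 ± 0.09 in Baclofen and −1.47 ± 0.10 in Control libraries (SD over 5), and its groups did not overlap. KLF7 was chosen for its difference between these groups, so its ratio to a locus that hardly differs separates them by construction. The strand partner MSTRG.12414 averaged 5.48 and 5.77 normalised counts (Baclofen and Control), and MSTRG.12415 averaged 5.58 and 2.82. DESeq2 gave neither an adjusted p, because of low counts. The log2 fold change of MSTRG.12414 was −0.09 ± 0.59 (SE, DESeq2), with a 95% interval of −1.24 to 1.07. That of MSTRG.12415 was 1.01 ± 0.65, with an interval of −0.28 to 2.29. At this depth the direction of neither was resolved.

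At KLF10 all 6 neighbours were tested. MSTRG.164, which meets KLF10 head to head, had 171, 156, 163, 163 and 161 normalised counts across the Baclofen libraries by replicate. The Control libraries had 144, 181, 188, 208 and 204. Control replicate 1 was the lowest library of all and kept the groups overlapping. DESeq2 put it at −0.18 ± 0.12 on the log2 scale (SE), with an adjusted p of 0.974, so its direction was not resolved. The locus on the strand of KLF10 that ends 14789 bp before it averaged 315 ± 14.1 in Baclofen and 343 ± 13.1 in Control libraries (SD over 5). Its log2 fold change by DESeq2 was −0.12 ± 0.08 (SE), with an adjusted p of 0.974. The nearest locus downstream, 3526 bp away on the same strand, differed by 0.03 ± 0.05 on the log2 scale (SE), and the locus of 1737506 bp that encloses KLF10 by −0.03 ± 0.06. Both had an adjusted p of 0.998 in DESeq2. Ratios of KLF10 to these 6 loci were higher with baclofen by 0.38 to 0.62 on the log2 scale. This too follows from the choice of KLF10, and nothing is read from it.

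**Figure D3:**
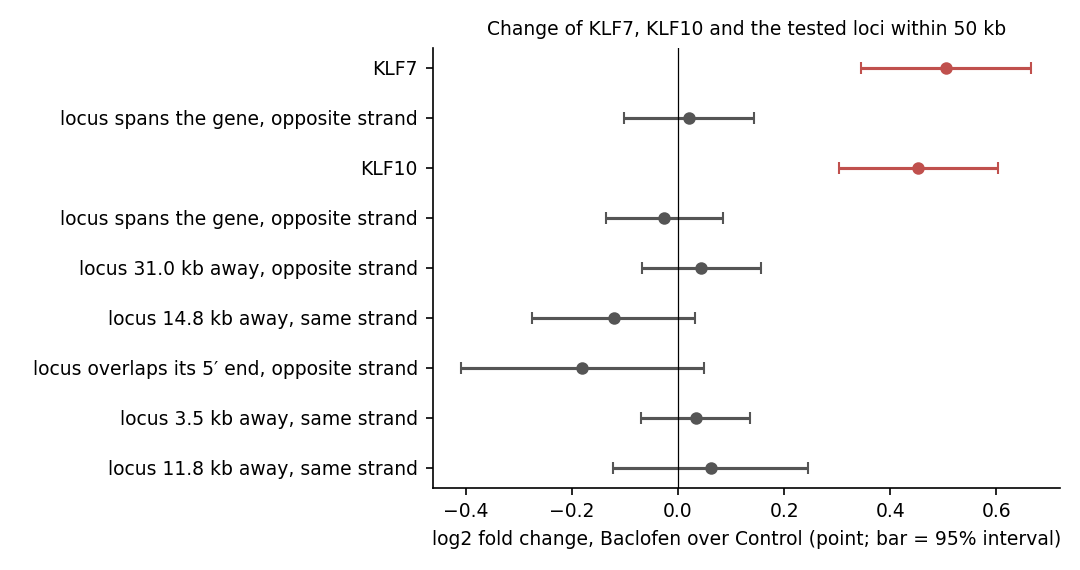
Log2 fold change of Baclofen over Control for KLF7, KLF10 (red) and the 7 tested loci near them (grey), with 95% intervals. KLF7 is at 0.51 and KLF10 at 0.45, both chosen for their change in these libraries, and the neighbours, which were not, lie between −0.18 and 0.06. The intervals of KLF7 and KLF10 take no account of that choice.

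Patterns most like those of KLF7 and KLF10 were sought over the 10 libraries among 16402 other loci, each averaging 50 normalised counts or more. Likeness was the root mean square difference of log2 values, each locus being centred on its own mean. Since both genes were chosen for their change with baclofen, loci with a similar change come near by construction. Among the 62 loci with a gene symbol, those nearest to KLF7 were DUSP1, SGK1, TLR2, PRG4 and KLF10, at 0.08, 0.08, 0.11, 0.12 and 0.12. The median distance over all loci was 0.31. Nearest to KLF10 were TRIB2, SGK1, TLR2, DUSP1 and KLF7, at 0.08, 0.09, 0.11, 0.11 and 0.12, with a median of 0.28. TRIB2 and SGK1 were the first and second of all loci for KLF10. DUSP1 and SGK1 held ranks 3 and 4 for KLF7. Of the 20 loci nearest to each gene, 10 for KLF7 and 12 for KLF10 belong to the study's baclofen list. That list has 82 loci in all, beside the 16402 ranked. Both genes come from the same list, so this follows from the choice and nothing is read from it.

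These neighbours in pattern have different products. SGK1, a kinase induced by serum and glucocorticoids in mammals, averaged 1404 ± 100.2 in Baclofen and 1004 ± 106 in Control libraries (normalised counts, SD over 5). DUSP1, a phosphatase that switches off MAP kinases, averaged 369 ± 28.1 in Baclofen and 269.9 ± 36.4 in Control libraries. TRIB2, a pseudokinase, averaged 766 ± 72.0 in Baclofen and 579 ± 63.2 in Control libraries, and there the groups overlapped. Its lowest Baclofen library, with 659, was replicate 1, and its highest Control library, with 685, was replicate 2, both as for KLF10. Its highest Baclofen library, with 857, was replicate 3, and its lowest Control library, with 518, was replicate 1. For KLF10 both of these were replicate 5. TRIB2 was picked for likeness over these same libraries, so such agreement is a description. TLR2, a receptor of innate immunity, and PRG4, a proteoglycan known from joint fluid, had log2 fold changes of 0.50 ± 0.12 and 0.52 ± 0.08 (SE, DESeq2). All of these are in the list made from these libraries, so their change too is a description.

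**Figure D4:**
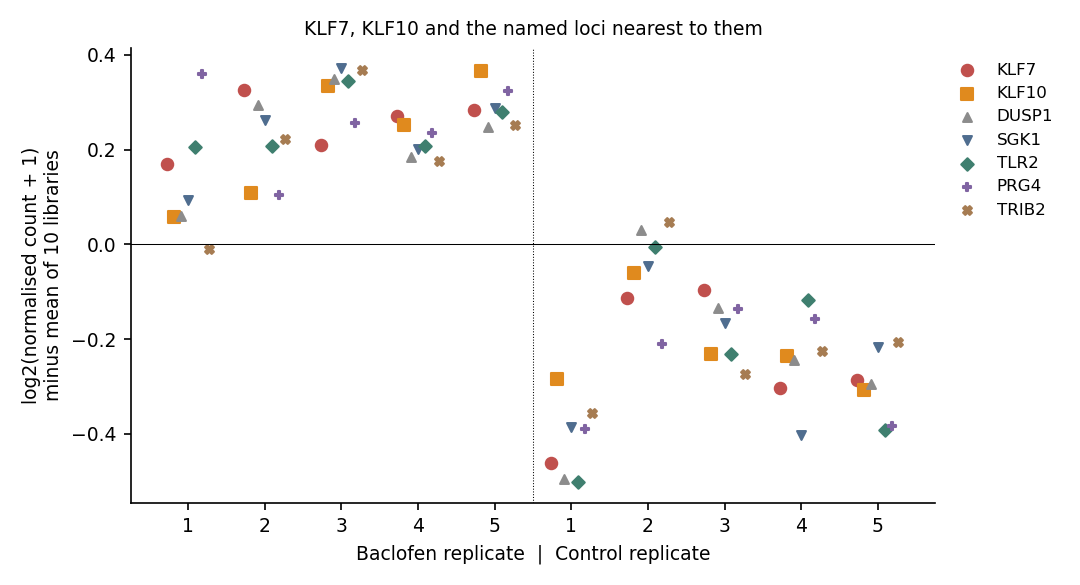
Log2(normalised count + 1) of KLF7, KLF10 and the 5 other named loci nearest to them, centred on the mean of the 10 libraries, by replicate (Baclofen left, Control right). Control replicate 2 is the highest Control library for KLF10, DUSP1, SGK1, TLR2 and TRIB2, and Control replicate 3 is so for KLF7 and PRG4.

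Other regulators of transcription could be looked up only where the study names them. Its baclofen list holds 12 besides KLF7 and KLF10, of which 10 were higher and 2 (PHF2 and a HESB locus) lower with baclofen, with a median log2 fold change of 0.50. All 12 passed the threshold because the list was drawn from these libraries. Over all called loci 64 were higher and 18 lower, so nothing particular to regulators is read from the split. NR1D1, a nuclear receptor of the circadian clock, averaged 1859 ± 254 in Baclofen and 553 ± 186 in Control libraries (normalised counts, SD over 5). HLF, a clock output factor, averaged 508 ± 26.0 in Baclofen and 388 ± 61.3 in Control libraries. DESeq2 put NR1D1 at 1.75 ± 0.23 and HLF at 0.39 ± 0.10 on the log2 scale (SE), on either side of those of KLF7 and KLF10. In HLF the groups overlapped. SMAD6, an inhibitor of BMP and TGF-beta signalling, averaged 341 ± 27.7 in Baclofen and 266 ± 14.1 in Control libraries. CREM, which carries cAMP responses to DNA, averaged 489 ± 70.0 in Baclofen and 283 ± 43.3 in Control libraries. Neither had overlapping groups. The 2 regulators of the study's GABA list, drawn from other libraries, were not called here. Only 0.345% of all tested loci were called, so this is not read as a lack of response. GTF2F2, a general transcription factor, differed by 0.11 ± 0.07 on the log2 scale (SE), with an adjusted p of 0.951 in DESeq2, and a second HESB locus, of the HES family downstream of Notch, by −0.23 ± 0.12, with an adjusted p of 0.911. The HESB locus of the baclofen list had −0.44 ± 0.09 and all Baclofen libraries below the controls. HEY1, a Notch effector of the same list, went the other way, with 0.41 ± 0.07 and all Baclofen libraries above the controls.

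Markers of brainstem cells were present in every library. Of 3 neuronal markers (CPLX1, CARTPT and GABRA5), 3 were detected in all libraries, and their summed normalised counts were 17486 to 19665 with baclofen and 16455 to 18385 in controls. CPLX1, a presynaptic protein, made up most of this sum and had all Baclofen libraries above the controls, with a log2 fold change of 0.17 ± 0.04 (SE, DESeq2). CARTPT, a neuropeptide precursor, had −0.09 ± 0.07 and GABRA5, a GABAA receptor subunit, had −0.13 ± 0.09, both with overlapping groups. Both glial and ependymal markers (VIM and SLC4A4) were detected in all libraries as well, with sums of 14456 to 16570 with baclofen and 14174 to 17178 in controls. The 3 leukocyte markers were low but never at 0, with sums of 721 to 945 with baclofen and 881 to 1119 in controls. They moved in different directions. PTPRC, the common leukocyte antigen, had all Baclofen libraries above all Control libraries, as KLF7 and KLF10 did, with a log2 fold change of 0.56 ± 0.12 (SE, DESeq2). VLRA, a receptor of lamprey lymphocytes, had them all below, with −0.58 ± 0.13. L-selectin (CD62L) had −1.24 ± 0.27 with overlapping groups. These 3 and CPLX1 are themselves in the study's list, and the part of such cells in the values of KLF7 and KLF10 was not tested.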

How the data were processed

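The deposited values are raw fragment counts per locus. According to the methods of the study, the authors sequenced stranded poly(A) libraries, trimmed reads with Fastp, aligned them with STAR to Pmar_germline 1.0, assembled loci with StringTie and counted fragments with featureCounts by strand (versions not given in the sources used here). Exon lists broken over a pair of lines were rejoined for 2 loci. Names came only from the study's lists, whose fold changes and p-values were not used.

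Counts were compared with DESeq2 version 1.42.0 (R version 4.3.3), treatment being the only term, with Wald test, Cook's cutoff, independent filtering and Benjamini-Hochberg adjustment over 23794 tested loci. Cook's cutoff left 84 loci without a p-value, and a mean count under 14.3 left 27938 without an adjusted one. Log2 fold changes are Baclofen over Control, not shrunken. Intervals are 95% Wald intervals, and those of loci chosen on this contrast are not corrected for the choice. The counting error is 1 over the root of the count, averaged over a group, and covers counting only.

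Alternatives were edgeR version 4.0.16 with and without filterByExpr, TMM factors, total counts, a minimum of 10 counts in 5 or more libraries, DESeq2 without its independent filtering or without Cook's cutoff, a block for the replicate number, overlapping loci of one strand summed, and each library left out. Fits were also run on simulated data with 200 changed loci, drawn independently for each library. Such data cannot show how the calls depend on single real libraries. The genes, lists and rules were chosen with earlier results of these data known. Named besides KLF7 and KLF10 were the 5 symbol-bearing loci most like each, neighbours overlapping them, and SMAD6, NR1D1, HLF and CREM. The cell type markers were listed separately, and the HESB loci, HEY1, PHF2 and GTF2F2 were named outside this rule, after their values were seen. Libraries are pools labelled as separate samples, and p-values set the difference between groups against the estimated spread between pools, not between animals.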

Additional observations from a re-analysis of the deposited data

Results flagged for a closer look

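Control replicate 2 stood above its group for KLF10, with 1241 normalised counts where the remaining controls had 1045 to 1102. The gap to the next library took 0.711 of the range of the group, just past the critical value of 0.71 for 5 libraries. With TMM factors the gap took 0.747 of the range and with total counts 0.600, below the critical value. Of 26 groups of 5 values examined this was 1 past the critical value, where chance gives about 1 in 20. The library still lay below every Baclofen library. Without it the log2 fold change of KLF10 was 0.50 in place of 0.45. In the same library the 3 neuronal markers summed to 18385, the highest of the controls, and the 3 leukocyte markers to 1042, within the range of the other controls. Whether these are linked to the KLF10 value was not tested.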

How the results depend on the processing

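The log2 fold changes of KLF7 (0.50 to 0.53) and KLF10 (0.45 to 0.47) moved by less than the replicate SD under the 9 alternatives that kept all libraries, and so did those without 1 library (0.45 to 0.54 and 0.42 to 0.50). With the replicate number as a block they were 0.51 and 0.45. Same-numbered libraries did not deviate together (correlations of −0.10 to 0.01, 0 of 5 over 0.1). A lack of shared deviation cannot show whether the pools were paired, and the labels do not say. Neighbours called numbered 0 in each alternative. The number of called loci, 82, was 25 in edgeR with its filter, 30 without it, 45 with the block, and 49 to 426 without 1 library. Of the 14 other named regulators, 12 were called, beside 0.345% of all tested loci. All 12 come from the list drawn from these libraries, so nothing is read from the count. The count of 12 became 4 in edgeR with its filter, 6 without it, 6 with the block and 6 to 11 without 1 library. Calls over all loci changed in these fits as well. The causes were not tested. Summing KLF7 with MSTRG.12414, which adds little (98.9% of the sum is KLF7), gave 0.50. The same 5 loci stayed nearest to each gene with a pseudocount of 5. Depth limits what MSTRG.12414 and MSTRG.12415 can show.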
